A study of Mus musculus with 16 samples.

Results

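Wnt4 and 7 further genes of the Wnt pathway (Wnt5a, Rspo3, Fzd4, Fzd7, Frzb, Sfrp1 and Axin2) were followed in mouse soleus muscle during a gradual lowering of the oxygen level. The 8 genes were picked by name with the outcome of these comparisons already known, so their levels and differences are given as a description and carry no test. They were measured by 11 probes, of which 10 passed the filter on dim signal, and they are 8 of the 22145 features analysed. All samples were soleus of male mice, a hindlimb muscle rich in slow fibres. The groups were day 3 (3 RNA samples), day 7 (3) and day 14 (4) of the hypoxia protocol, and day 0, at its start (4). Oxygen was lowered stepwise during the first week and held during the second, and the day 0 samples carry the same treatment label with a time of 0 days. Strain, age and time of day are not given in the labels, and neither is whether RNA samples came from separate mice, so the spread between them may be partly technical. The design text names 4 samples per day, and a further sample of day 3 or day 7 was not analysed here.

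Wnt proteins are secreted, lipid-modified ligands that bind Frizzled receptors on neighbouring cells. With the co-receptors Lrp5 and Lrp6 they can stop the breakdown of beta-catenin, which then acts with TCF/LEF factors on target genes such as Axin2; other branches act through small GTPases or calcium. R-spondins strengthen the response by keeping Frizzled receptors at the cell surface, and Sfrp proteins and Frzb bind Wnt ligands outside the cell. In muscle, Wnt signalling is known from development, from the neuromuscular junction and from regeneration by satellite cells, the stem cells of the fibre.

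The arrays lay on 2 slides. Slide 1 held the day 3 and day 7 arrays with day 0 RNA samples 1 and 2, and slide 2 held the day 14 arrays with all 4 day 0 RNA samples. Levels are log2 intensities relative to the 75th percentile of the array, so they compare samples for 1 probe and not 1 gene with another. Slide 1 was brighter, with a 75th percentile of 203 to 271 intensity units and 48.3 to 55.3% of spots well above background, against 49.1 to 77.0 units and 37.9 to 42.9% on slide 2. The dimmest spots above background had levels between -4.01 and -3.25 on slide 1 and between -2.46 and -1.84 on slide 2. Differences between days were therefore fitted with the slide as a term, and each day is also set against the day 0 arrays of its own slide. All 10 muscle fibre markers were well above background on every array, with summed linear levels of 9562 to 12903. In bulk muscle, fewer cells of a type and less RNA per cell cannot be told apart.

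Wnt4, a ligand known in muscle for its part in forming the neuromuscular junction, was higher at day 3 and day 7 than at day 0 and lower at day 14. On slide 1 its levels were -0.82, -0.59 and -0.11 at day 3 and 0.52, 0.04 and 0.23 at day 7, against -1.45 and -1.35 at day 0. Every day 3 and every day 7 array lay above both day 0 arrays, and every day 7 array above every day 3 array. On slide 2 its levels were -1.34, -1.28, -1.44 and -1.20 at day 14, against -1.19, -0.97, -0.64 and -0.21 at day 0. The day 14 arrays all lay below the day 0 arrays, although the highest of them came close to the lowest of day 0.

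The fitted difference for Wnt4 was 0.75 ± 0.25 (SE) for day 3 over day 0 (1.68-fold) and 1.52 ± 0.25 for day 7 over day 0 (2.87-fold). For day 14 against day 0 it was -0.56 ± 0.20, which is 1.48-fold lower. Between successive times, day 7 exceeded day 3 by 0.77 ± 0.23, and day 14 lay below day 7 by a difference of -2.08 ± 0.29 (4.24-fold lower). Day 14 and day 7 shared no slide and were joined through the day 0 RNA samples run on both. Adjusted for slide, the mean level was -0.96 ± 0.37 (SD, n = 4 RNA samples) at day 0 and -0.26 ± 0.36 (n = 3) at day 3. It was 0.52 ± 0.24 (n = 3) at day 7, and the day 14 mean was -1.57 ± 0.10 (n = 4). The order was thus day 7, day 3, day 0 and day 14. Of the neighbours in it, day 3 (-0.57 to 0.14) and day 0 (-1.32 to -0.47) overlapped, whereas day 7 (0.30 to 0.77) and day 14 (-1.69 to -1.45) stood apart from their neighbours.

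**Figure D1:**
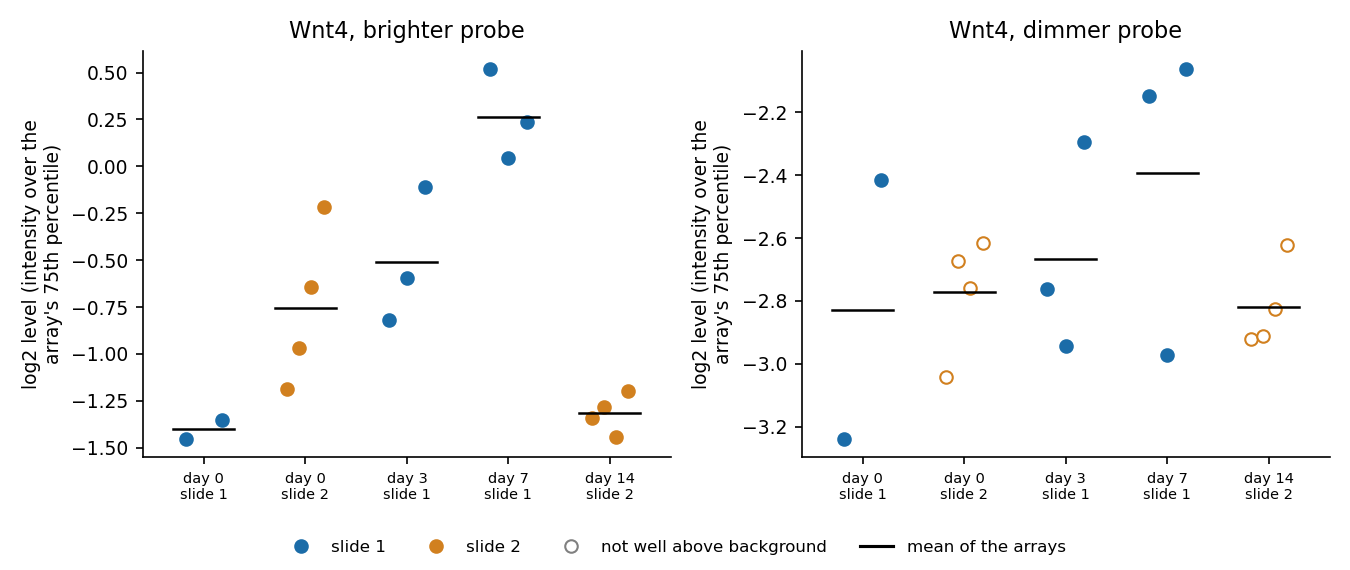
Wnt4 by day and slide on its brighter probe (left) and dimmer probe (right), as log2 intensity relative to the array's 75th percentile; each point is 1 array, the bar is the mean of the arrays, and open points were not well above background. On the brighter probe the day 7 arrays sit between 0.04 and 0.52, above all others, and the day 14 arrays between -1.44 and -1.20; the dimmer probe shows overlapping days.

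Wnt4 has another probe against the same transcript, whose signal was much dimmer. It was well above background on the 3 day 3 arrays, the 3 day 7 arrays and 2 of 6 day 0 arrays, and on 0 of 4 day 14 arrays. On slide 1 its levels were -2.76, -2.94 and -2.29 at day 3 and -2.15, -2.97 and -2.06 at day 7, against -3.24 and -2.42 at day 0. The days overlapped on that probe, and its mean differences within slide 1 were 0.16 for day 3 and 0.43 for day 7, against 0.89 and 1.67 on the brighter probe. On slide 2, where it was not well above background on any array, its day 14 minus day 0 difference was -0.05, against -0.56. The size of the Wnt4 differences therefore rests on 1 probe. It also rests on the slide: the fitted slide difference for Wnt4 (slide 2 minus slide 1) was 0.50, and it was 0.26 and 0.38 in the day 0 RNA samples 1 and 2 that were run on both. Without the slide 1 arrays of day 0 and without a slide term, the differences from day 0 were 0.25 at day 3 and 1.02 at day 7. After normexp background correction, which adds an offset of 50 units, the day 14 difference was -0.12.

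The stretch upstream of the Wnt4 start site is shown because most of the results turn on Wnt4. It comes from a RefSeq promoter table that lists 5 of the 8 members (Wnt4, Fzd4, Fzd7, Frzb and Axin2). The window is chr4:137277385-137277634 on the plus strand of GRCm38.p6, the 250 bases before the start. It was searched on both strands for ACGTG, the core letters of hypoxia-inducible factor sites, and for the TCF/LEF motif, taken as CTTTG followed by any pair of A and T bases, with matches set in capitals.
Wnt4: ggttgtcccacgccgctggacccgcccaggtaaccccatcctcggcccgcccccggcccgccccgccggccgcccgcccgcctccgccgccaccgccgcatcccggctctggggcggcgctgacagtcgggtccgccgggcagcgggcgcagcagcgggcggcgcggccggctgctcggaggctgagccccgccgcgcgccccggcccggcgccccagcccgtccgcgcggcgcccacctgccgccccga
The Wnt4 window held no match to either motif, and 85.2% of its bases were G or C, against a median of 52.4% over all 32851 windows of the table. ACGTG was found in 16.6% of those windows and the TCF/LEF letters in 14.8%. None of the 5 members had ACGTG in its window, and Fzd7 alone had a TCF/LEF match, with 1.

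The other ligand, Wnt5a, is best known for signalling through planar polarity and calcium. On slide 1 its levels were -0.45, -0.69 and -0.81 at day 3 and -0.65, -0.89 and -0.56 at day 7, against -0.68 and -0.44 at day 0. Those days overlapped, and the fitted differences were -0.14 ± 0.17 at day 3 and -0.19 ± 0.17 at day 7. On slide 2 the levels were -1.06, -0.71, -0.95 and -0.56 at day 14, against -0.46, -0.57, -0.32 and -0.27 at day 0. Of the day 14 arrays, 3 lay below all day 0 arrays and the highest lay just above the lowest of them, with a fitted difference of -0.42 ± 0.14. The fitted differences of Wnt5a and Wnt4 thus had opposite signs at day 7, where Wnt5a overlapped day 0, and both were negative at day 14.

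Rspo3, an R-spondin that is made by stromal and vascular cells in many tissues, was higher than day 0 on every array of the later days within its slide. Slide 1 gave levels of 1.44, 1.73 and 1.0 at day 3 and 1.87, 2.10 and 1.40 at day 7, against 0.89 and 0.67 at day 0. On slide 2 they were 1.61, 1.95, 1.69 and 1.87 at day 14, against 1.07, 1.29, 1.53 and 1.32 at day 0. The fitted differences from day 0 were 0.56 ± 0.22 at day 3, 0.96 ± 0.22 (1.94-fold) at day 7 and 0.48 ± 0.18 at day 14. Unlike Wnt4, Rspo3 did not lie below its day 0 level at day 14. The 8 pericyte and vascular smooth muscle markers, all above background on every array, summed to 80.1 to 85.4 at day 3 and 67.5 to 79.8 at day 7, against 74.7 to 85.0 at day 0 on slide 1. At day 14 they summed to 91.1 to 109, wholly above the 78.3 to 85.8 at day 0 on slide 2. By limma 1 of them was called higher, as 0.294% of all features were. The sum weighs the brightest markers most. By mean log2 level the same 8 gave 2.75 to 2.84 at day 3 and 2.64 to 2.88 at day 7. Day 0 on slide 1 gave 2.62 to 2.74, so day 3 lay above it and day 7 overlapped it. Of these markers, limma called 1 higher and 0 lower at day 3, and 2 higher and 2 lower at day 7. Over all features it called 2.27% higher and 3.82% lower at day 3, and 15.6% and 8.15% at day 7. The part of these markers in the Rspo3 levels was not tested. All 25 other settings tried (11 processing choices and 14 leave-outs of 1 RNA sample) gave a positive difference at each of the 3 days, with a range of 0.09 to 0.75 at day 3.

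**Figure D2:**
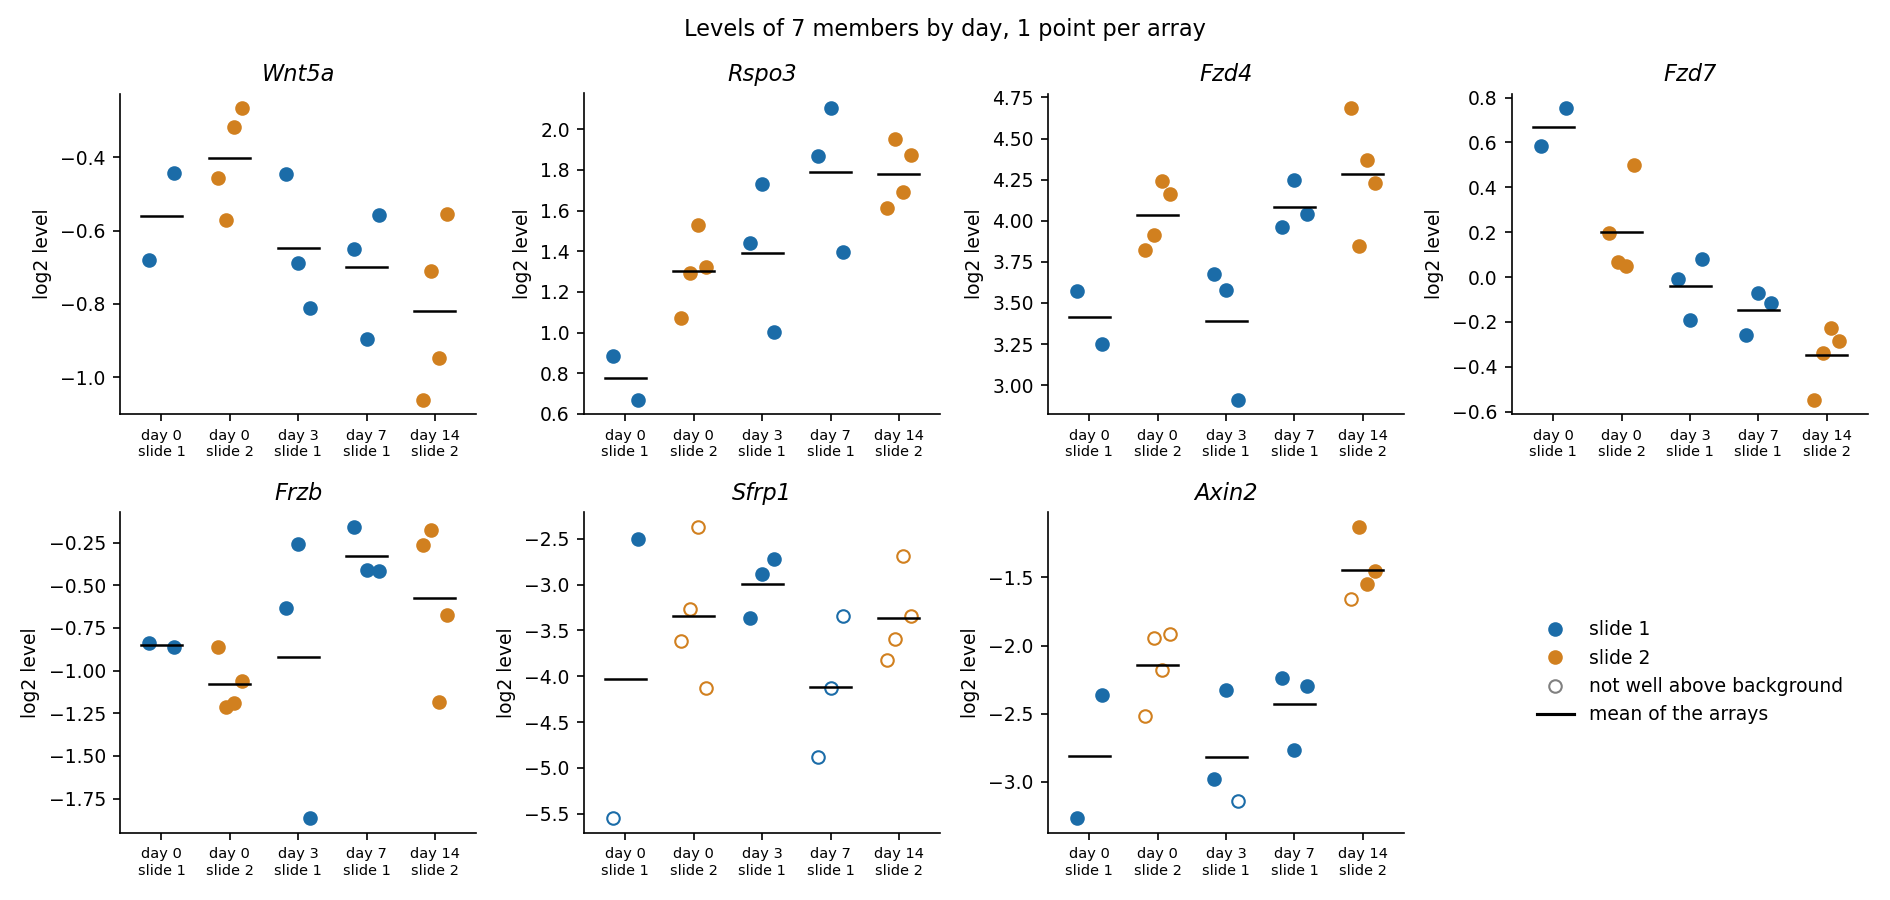
The other 7 members by day and slide, as log2 intensity relative to the array's 75th percentile; each point is 1 array, the bar is the mean of the arrays and open points were not well above background. Rspo3 sits above and Fzd7 below the day 0 arrays of the same slide at each later day, and on slide 2 all Sfrp1 points and all day 0 points of Axin2 are open.

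The Frizzled receptors differed in direction. Fzd7, a receptor known on satellite cells, lay below day 0 on every later array within its slide. The levels on slide 1 were -0.01, -0.19 and 0.08 at day 3 and -0.26, -0.07 and -0.11 at day 7, against 0.58 and 0.75 at day 0. On slide 2 they were -0.55, -0.34, -0.23 and -0.29 at day 14, against 0.20, 0.07, 0.05 and 0.50 at day 0. The day 3 and day 7 arrays overlapped each other. The fitted differences from day 0 were -0.74 ± 0.15 (1.67-fold lower) at day 3, -0.85 ± 0.15 (1.80-fold lower) at day 7 and -0.55 ± 0.12 (1.47-fold lower) at day 14. They were negative at each day in all 25 other settings, between -0.24 and -0.85 at day 3 and between -0.35 and -1.0 at day 7. A dimmer Fzd7 probe was well above background on 1 of 16 arrays and was not used.

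Satellite cell markers were read beside Fzd7. Of the 6 tested, 5 were well above background on every array. The summed linear level of the 6 was 9.78 to 10.01 at day 3 and 10.3 to 10.4 at day 7, against 9.61 to 9.94 at day 0 on slide 1. On slide 2 the sum was 10.1 to 10.4 at day 14, against 8.99 to 9.97 at day 0. The mean log2 level of the 6 was -0.32 to 0.04 at day 3 and -0.20 to -0.05 at day 7, against -0.29 to -0.26 at day 0 on slide 1, and -0.21 to -0.18 at day 14, against -0.33 to -0.02 at day 0 on slide 2. By the mean, day 3 and day 14 overlapped day 0 and day 7 lay above it. Their part in the Fzd7 levels was not tested. The window before the Fzd7 start site, chr1:59481897-59482146 on the plus strand of GRCm38.p6, is shown because it held the only TCF/LEF match among the 5 windows (in capitals, a match on the opposite strand).
Fzd7: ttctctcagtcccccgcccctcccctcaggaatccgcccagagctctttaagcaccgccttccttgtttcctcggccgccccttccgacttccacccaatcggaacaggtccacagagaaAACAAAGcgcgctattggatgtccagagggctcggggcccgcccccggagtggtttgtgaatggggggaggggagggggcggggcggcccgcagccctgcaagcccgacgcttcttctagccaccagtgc

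Fzd4, the receptor for norrin as well as Wnt ligands and known from blood vessels, was higher at day 7 within slide 1. Measured on slide 1, its levels were 3.68, 3.58 and 2.91 at day 3 and 3.96, 4.25 and 4.04 at day 7, against 3.57 and 3.25 at day 0. All day 7 arrays lay above those of day 0 and day 3, while day 3 overlapped day 0 and had 1 array, RNA sample 4, below it. The fitted differences were -0.10 ± 0.25 at day 3 (0.14 without that sample) and 0.60 ± 0.25 (1.51-fold) at day 7, and day 7 exceeded day 3 by 0.69 ± 0.23. On slide 2 the levels of 4.69, 3.85, 4.37 and 4.23 at day 14 overlapped those of 3.82, 3.91, 4.24 and 4.16 at day 0. The day 14 difference was 0.25 ± 0.20. Those day 0 arrays of slide 2 also overlapped the day 7 arrays by level. Without the slide 1 arrays of day 0 and without a slide term, the day 7 difference was 0.05. That was the lowest of the 25 other settings, which reached up to 0.74. The 8 endothelial markers, all above background on every array, summed to 47.0 to 50.4 at day 7 against 48.4 to 48.8 at day 0 on slide 1, so their range spanned that of day 0. That sum rests on the brightest markers. The mean log2 level of the same 8 was 1.76 to 1.99 at day 7, wholly below the 2.03 to 2.17 at day 0 on slide 1. Of them, 2 were called lower and 0 higher by limma, against 8.15% and 15.6% of all features. Their part in the Fzd4 levels was not tested.

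Of the secreted antagonists, Frzb, a matrix-associated Wnt binder of cartilage and connective tissue, was higher at day 7 within slide 1. Its levels were -0.63, -0.26 and -1.86 at day 3 and -0.16, -0.41 and -0.41 at day 7, against -0.84 and -0.86 at day 0. RNA sample 4 of day 3 was again the low one, and without it the day 3 difference was 0.42 instead of -0.05. On slide 2 its levels were -0.27, -0.18, -1.18 and -0.68 at day 14, against -0.86, -1.21, -1.19 and -1.06 at day 0, with 1 day 14 array inside the day 0 range. The fitted differences were 0.54 ± 0.36 at day 7 and 0.51 ± 0.29 at day 14. The 8 tendon markers summed to 120.1 to 217 at day 7 against 115 to 120.3 at day 0 on slide 1, and to 40.6 to 88.3 at day 14 against 54.4 to 141 at day 0 on slide 2. Their part in the Frzb levels was not tested.

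Sfrp1, a soluble Frizzled mimic, was near background. It was well above background on 3 of 3 day 3 arrays, 0 of 3 day 7 arrays, 0 of 4 day 14 arrays and 1 of 6 day 0 arrays. The gene thus passed the filter on dim signal only through the day 3 arrays, which limits its day 3 comparisons. The arrays of slide 1 gave -3.36, -2.89 and -2.72 at day 3 and -4.88, -4.13 and -3.34 at day 7, against -5.55 and -2.50 at day 0. With day 7 arrays set at no less than their lowest level above background, Sfrp1 was 1.40-fold lower than at day 3. That fold is not a strict lower bound, since the day 7 value of -3.34 exceeded that level (-3.35) without counting as above background. The Sfrp1 day 3 minus day 0 difference of 0.99 ± 0.73 ranged from -0.49 to 2.45 over the leave-outs of 1 RNA sample. On slide 2 the levels were -3.82 to -2.69 at day 14 and -4.13 to -2.37 at day 0, none above background, so no fold is given.

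Axin2, a scaffold of the complex that degrades beta-catenin and itself a common readout of beta-catenin signalling, was dim. Its slide 1 levels were -2.98, -2.33 and -3.14 at day 3 and -2.24, -2.77 and -2.29 at day 7, against -3.27 and -2.36 at day 0, and the days overlapped. On slide 2 they were -1.66, -1.13, -1.55 and -1.46 at day 14, with 3 of 4 arrays well above background, against -2.52, -1.95, -2.18 and -1.91 at day 0, with 0 of 4. Within slide 2 Axin2 was 1.60-fold higher at day 14, with each day 0 array set at no less than its lowest level above background. This is no lower bound. Day 0 values of -1.95 and -1.91 exceeded that level (-2.04 and -2.16 on those arrays) without counting as above background. The fitted differences were -0.05 ± 0.27 at day 3, 0.34 ± 0.27 at day 7 and 0.69 ± 0.22 at day 14. The other Axin2 probe was above background on 7 of 8 slide 1 arrays and 0 of 8 slide 2 arrays, so it gives no value for day 14. Its mean differences within slide 1 were 0.22 at day 3 and 1.04 at day 7. On that probe the day 7 arrays (-1.81, -1.11 and -2.17) all lay above the day 0 arrays (-2.63 and -2.85) of slide 1, while day 3 overlapped day 0.

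**Figure D3:**
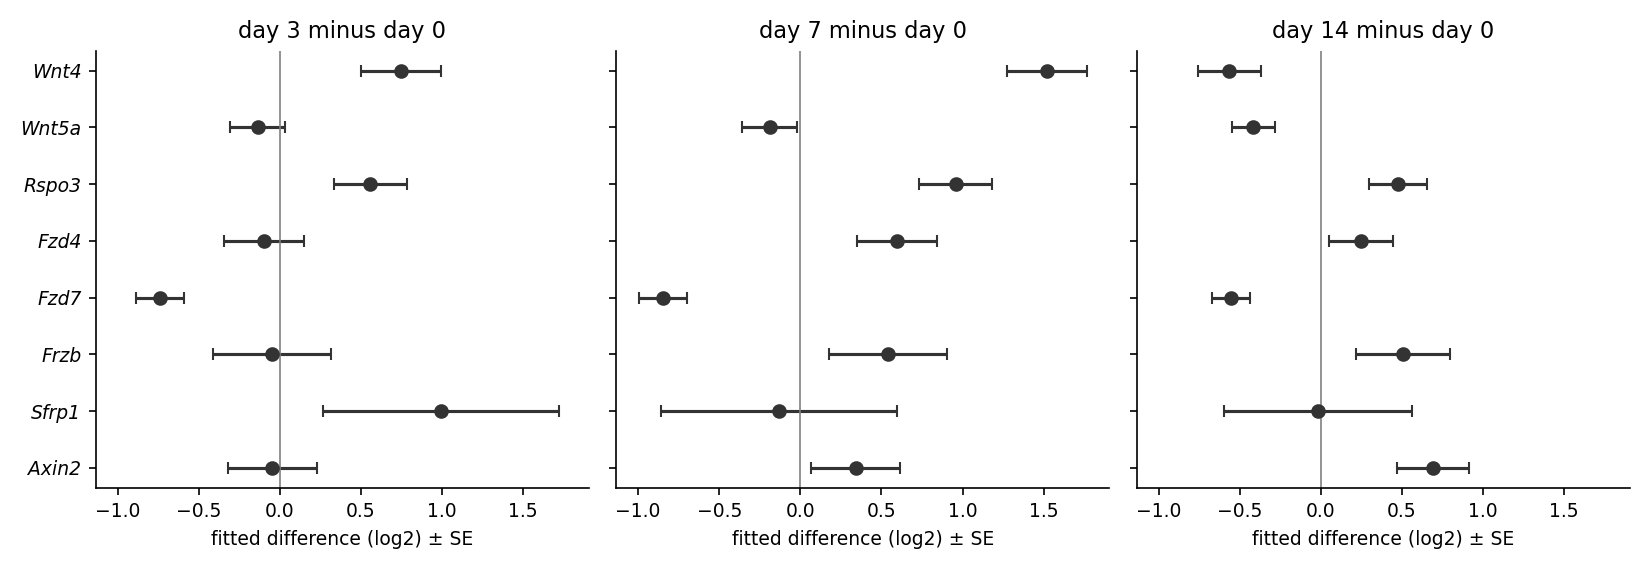
Fitted differences from day 0 (log2, horizontal axis) with their SE for the 8 members at day 3, day 7 and day 14, with the slide as a term. Wnt4 lies at 0.75, 1.52 and -0.56, Rspo3 is positive and Fzd7 negative on each day, and Sfrp1 has the longest error bars.

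Set side by side, the members did not share a course. At day 7, 5 of 8 had a positive and 3 a negative fitted difference from day 0 (median 0.44), and at day 14 the split was 4 to 4 (median 0.12). Within slide 1, 2 members lay wholly above and 1 wholly below the day 0 arrays at day 3, where 24.7% and 18.4% of all features did (43.1% in either direction). At day 7 this held for 4 members above and 1 below, against 33.5% and 21.6% of all features (55.1% in either direction). Within slide 2 it held for 2 members above and 2 below at day 14, against 10% and 4.1% of all features (14.1% in either direction). Wnt4 and Fzd4 lay wholly above day 3 at day 7, as 11.2% of features did, and none wholly below, as 6.06% did (17.2% in either direction). Since the members were chosen with these comparisons in view, nothing is read from their counts; these comparisons also share their day 0 samples.

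A wider list of 110 Wnt pathway genes that are not among the 8, grouped by role, was read in the same fit, and 85 of them were tested. The 25 that were too dim included the ligands Wnt2, Wnt3, Wnt3a, Wnt7a and Wnt7b, the R-spondin receptor Lgr5 and the antagonists Dkk1 and Sost, each with 0 of 16 arrays above background. At day 7 against day 0, 17 of the 85 passed (limma, p adjusted over all features under 0.05), 14 higher and 3 lower, or 20.0% against 23.8% of all features (15.6% higher and 8.15% lower). Their median difference was 0.19, against 0.09 over all features. At day 3, 5 passed, 4 higher and 1 lower, or 5.88% against 6.09% of all features (2.27% higher and 3.82% lower), with a median of 0.10 against 0.06. Without both day 0 arrays of slide 1 and without a slide term, the direction at day 3 was the opposite, with 0 higher and 6 lower, and over all features 510 were higher and 1565 lower. The list's shares were thus near the background on both days.

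At day 14 against day 0 none of the 85 passed with limma, as 0.402% of all features did (0.294% higher and 0.108% lower), and the median was 0.05 against 0.06 over all features. An unadjusted p under 0.05 was found for 16 of them, or 18.8% against 20.6% of all features. For day 7 against day 3, 1 passed, Btrc, or 1.18% against 0.677% of all features (0.447% higher and 0.23% lower). For day 14 against day 7 none did, against 2.3% of all features (1.12% higher and 1.18% lower), and 20 had an unadjusted p under 0.05, or 23.5% against 22.1%. The day 7 count depended on the 2 day 0 RNA samples run on both slides. It was 0 when day 0 RNA sample 2 was left out, when 0.483% of all features passed. It was 10 (11.8%) when either day 0 RNA sample 1 or day 7 RNA sample 2 was left out, against 11.8% of all features each time. The day 3 count was 0 when either of those day 0 RNA samples was left out, with 0.424% (sample 1) and 0.0452% (sample 2) of all features passing, and 1 when day 3 RNA sample 2 was, against 0.628%. Without both day 0 arrays of slide 1 and without a slide term, the day 7 count was 12, of which 4 were higher and 8 lower. Another scaling, by the 75th percentile over probes above background on all arrays, gave 9 higher and 6 lower. Over all features the split at day 7 was 3458 higher and 1805 lower, and that scaling gave 2126 and 2676, with the median of all features at -0.06 in place of 0.09. Quantile normalization gave 11 higher and 4 lower among the Wnt genes, and the deposited values gave 10 higher and 5 lower.

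Among the ligands, 9 of 17 were tested, and 2 rose and 1 fell at day 7 against day 0. Wnt5b rose by 0.45 ± 0.14 (adjusted p = 0.0337) and Wnt9a by 0.43 ± 0.14 (0.0377), whereas Wnt1, a ligand of the beta-catenin branch, fell by 0.45 (adjusted p = 0.0496), all by limma. The Wnt9a levels on slide 1 were 1.88 to 2.07 at day 7 against 1.41 to 1.70 at day 0. Of the 5 genes for lipidation and release, Wls, the carrier that takes Wnt ligands to the cell surface, rose at both days. Its levels on slide 1 were 1.12 to 1.21 at day 3 and 1.08 to 1.34 at day 7, against 0.55 to 0.62 at day 0. The fitted differences were 0.58 ± 0.10 at day 3 (limma adjusted p = 0.0125) and 0.63 ± 0.10 at day 7 (0.0024). Notum, an enzyme that removes the lipid from Wnt ligands and a target of beta-catenin, fell by 0.53 at day 3 (limma adjusted p = 0.0372) and by 0.66 at day 7 (0.00545). Its levels on slide 1 were 2.06 to 2.42 at day 3 and 2.06 to 2.19 at day 7, against 2.75 to 2.92 at day 0.

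Among Frizzled receptors and co-receptors, 13 of 16 were tested. Ptk7, a co-receptor of planar polarity, rose by 0.53 ± 0.13 at day 3 (limma adjusted p = 0.0331). At day 7 Lrp6 rose by 0.57 ± 0.15 (limma adjusted p = 0.0145) and Tspan12, a partner of Fzd4, by 0.51 ± 0.18 (0.049). Another Lrp6 probe, above background on all 16 arrays, went the other way, with a mean difference within slide 1 of -0.52. None of the 4 tested R-spondins and R-spondin receptors passed in any comparison. The smallest p was that of Rspo1 for day 14 against day 7, where it was above background on 0 of 4 day 14 arrays and 3 of 3 day 7 arrays. The limma fit used the values as measured, with slide-adjusted means of -4.12 at day 14 and -1.87 at day 7, and gave an adjusted p of 0.0674. With those day 14 arrays set at no less than their lowest level above background, Rspo1 was 1.46-fold lower, a fold that was not tested. None of the 9 tested antagonists passed either. The smallest p was that of Sfrp2, with a day 7 minus day 3 difference of -1.44 ± 0.50 and an adjusted p of 0.190 (limma).

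The cytoplasmic transducers gave 3 rises and 1 fall among 13 tested at day 7. Btrc, which marks beta-catenin for breakdown, rose by 0.98 ± 0.16 (limma adjusted p = 0.00324). Its levels on slide 1 were 0.41 to 0.99 at day 7, against -0.38 to -0.21 at day 0. It also exceeded its day 3 level, by 0.72 ± 0.15 (limma adjusted p = 0.0454). Dvl3, a relay below Frizzled, rose by 0.61 ± 0.12 at day 3 (limma adjusted p = 0.0181) and 0.49 ± 0.12 at day 7 (0.0108). Gsk3b, the kinase that marks beta-catenin, rose by 0.44 ± 0.12 at day 3 (limma adjusted p = 0.0427) and by 0.48 ± 0.12 at day 7 (0.0116). Its further probes gave 0.62 and -0.34 within slide 1 at day 7, so they disagreed in sign. Axin1, the scaffold related to Axin2, fell by 0.49 at day 7 (limma adjusted p = 0.00912), with levels of 0.33 to 0.63 against 0.97 to 1.1 at day 0 on slide 1.

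Of 12 nuclear effectors tested, 3 rose at day 7. The corepressor Tle1 rose by 0.85 ± 0.18 (limma adjusted p = 0.0058), and its other 3 probes gave differences within slide 1 of 0.45, 0.57 and 0.07. Pygo2, a partner of beta-catenin, rose by 0.39 ± 0.11 (limma adjusted p = 0.0251). Its relative Pygo1 was above background on 3 of 3 day 7 arrays and 0 of 6 day 0 arrays, and was at least 1.30-fold higher (limma adjusted p = 0.0254). Pygo1 thus passed the filter on dim signal only through the day 7 arrays, which limits its day 7 comparison and its call. Of 12 beta-catenin targets other than Axin2, 1 rose and 1 fell at day 7. Tnfrsf19 rose by 0.80 ± 0.15 (limma adjusted p = 0.00435) on its brighter probe and had a difference within slide 1 of -0.06 on the other, and the target that fell was Notum. Of 12 planar polarity and calcium genes, 2 rose, Prkca by 1.06 ± 0.15 (limma adjusted p = 0.00186) and Nfatc3 by 0.91 ± 0.19 (0.00605). A further Nfatc3 probe gave -0.06 and a further Prkca probe 0.50 within slide 1. Prkca, a calcium-dependent kinase, had slide 1 levels of 2.40 to 2.91 at day 7 against 1.55 to 1.74 at day 0.

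**Figure D4:**
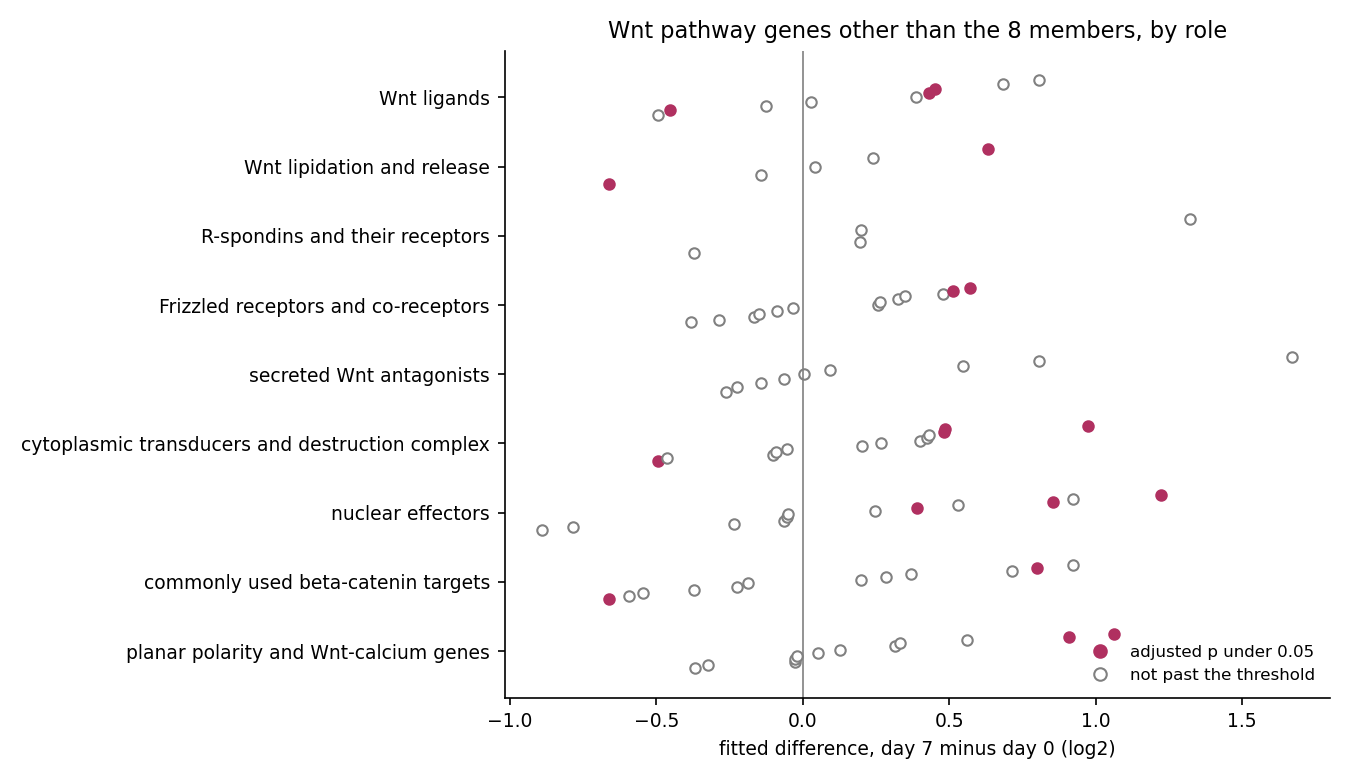
Fitted differences, day 7 minus day 0 (log2, horizontal axis), of the 85 tested Wnt pathway genes other than the 8 members, 1 row per role and 1 point per gene; genes in 2 roles appear in both rows. Filled points passed an adjusted p of 0.05 (17 genes, 14 higher and 3 lower), and they lie in all rows except those of R-spondins and antagonists.

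How these calls depended on the slide was read for each gene. Of the 17 calls at day 7, 4 held under all 3 other treatments of the slide (Btrc, Notum, Prkca and Tnfrsf19), and 15 kept their sign. Of all features, 14.8% passed at day 7 with no slide term and 9.45% within 1 slide. Without the slide 1 arrays of day 0, 17.5% did. The share of all features that held under all 3 was not computed. Of the 5 calls at day 3, 3 kept their sign. No call could hold under all 3 at day 3, since 0 of 22145 features passed within 1 slide. The genes that turned sign under at least 1 of these treatments were Dvl3 and Ptk7 at day 3 and Dvl3 and Pygo2 at day 7. Without the slide 1 arrays of day 0, Dvl3 passed as lower at day 7, by a difference of -0.33 (limma adjusted p = 0.0446). Over all 25 other settings, Tspan12 passed at day 7 in 4 (limma adjusted p from 0.0072 to 0.920) and Wnt1 in 6 (0.0159 to 0.242). Macrophage markers were lower at day 7, where limma called 3 of the 6 tested lower, against 8.15% of all features. Their summed linear level was 11.4 to 13.0 at day 7 against 16.5 to 22.9 at day 0 on slide 1. Their mean log2 level was -0.18 to 0.13 at day 7 against 0.64 to 1.33 at day 0 on slide 1. On slide 2 that mean was 0.261 to 0.346 at day 14, wholly below the 0.516 to 1.195 at day 0. The sums of those days overlapped, and limma called 0 of the 6 lower at day 14. Red blood cell markers moved with day 14, where limma called 3 of 4 higher, against 0.294% of all features. The sum of these markers was 580.4 to 1165 at day 14 against 197 to 282 at day 0 on slide 2. The part of the macrophage and red blood cell markers in the Wnt gene levels was not tested.

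Genes with a course most like that of Wnt4 were sought over the 14 RNA samples among 11551 genes, by Pearson correlation of slide-adjusted levels. The highest were Fam13a (r = 0.944), Pisd-ps1 (0.934), Rtn1 (0.933), Vegfc (0.913) and Srsf5 (0.911). The lowest were Slc9a3r2 (r = -0.971), Astn2 (-0.926) and Il34 (-0.918). These values describe libraries that share their slides and day 0 samples, and they carry no test. Vegfc, a growth factor of lymphatic vessels, had means of 0.29, 0.41, 0.70 and -0.14 over days 0, 3, 7 and 14. Slc9a3r2, a scaffold of membrane proteins, averaged 3.54, 3.05, 2.54 and 3.84 at the same days, the mirror of the Wnt4 order. The difference between day 7 and day 14 was smaller in each of the 5 most similar genes than in Wnt4. Among the Wnt genes, Pygo2 correlated best with Wnt4 (r = 0.863, rank 35) and Ccnd1 had the lowest value (r = -0.808). Of the members, Rspo3 had r = 0.493, Wnt5a 0.296, Fzd4 0.204, Frzb -0.070 and Fzd7 -0.435.

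**Figure D5:**
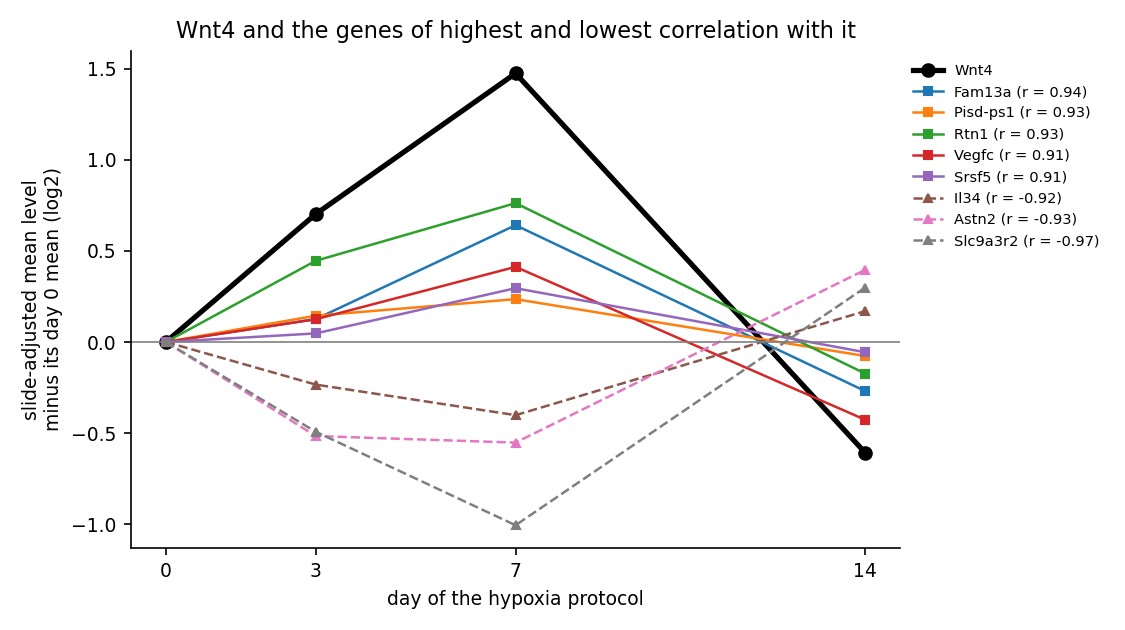
Slide-adjusted mean level minus the day 0 mean (log2) over days 0, 3, 7 and 14 for Wnt4 (thick line), the 5 genes with the highest correlation with it (squares, solid lines) and the 3 with the lowest (triangles, dashed lines). The 5 similar genes peak at day 7 and lie below day 0 at day 14 like Wnt4, and Slc9a3r2 runs the opposite way.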

How the data were processed

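Per the file headers, Agilent Feature Extraction 11.0.1.1 made the deposited spot values, a linear intensity that is background-subtracted and detrended but not scaled between arrays. A deposited series table of linear intensities, whose processing is not given in the sources used here, served as an alternative. The members and the gene lists were chosen with earlier results of these data known.

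Outlier-marked spots were left out, log2 intensity was reduced by each array's 75th percentile over non-control spots, and spots of a probe were averaged. Probes were named through RefSeq transcripts. Of them, 29479 were well above background on at least 3 of 16 arrays. The brightest probe stood for its gene, which left 22145 features.

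Days were compared with limma 3.58.1 (R 4.3.3, statmod 1.5.0), 2-sided, with fixed terms for day and slide and a random block for RNA sample (correlation 0.448), so that RNA run on both slides counted as 1 replicate. Benjamini-Hochberg adjustment covered every feature. For a group with 0 arrays above background, values under the array's lowest level above background were raised to it for the fold. A probe can exceed that level without counting as above background, so the fold is not a strict bound. The named genes were the 8 members, up to 4 called genes per list and direction (otherwise the one with the smallest p), and the 5 highest and 3 lowest correlations with Wnt4 among genes above background on at least 12 arrays. Precision is limited by the number of RNA samples. The fit was tested on simulated data. Normexp used the median spot signal, since the mean signal planned for it is not in the files. Figures used Matplotlib 3.10.9.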

Additional observations from a re-analysis of the deposited data

Results flagged for a closer look

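On its brighter probe, Wnt4 moved in opposite directions at different times of the protocol: within slide, every day 3 and day 7 array lay above the day 0 arrays, and every day 14 array lay below them. The days overlapped on the dimmer probe, whose day 14 minus day 0 difference on slide 2 was -0.05. The fitted day 14 minus day 7 difference on the brighter probe was -2.08 ± 0.29 (log2, SE). Because Wnt4 was chosen with these comparisons in view, no test of this difference is given and it stands as a description.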

How the results depend on the processing

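The number of other Wnt genes called moved by over 1.5 times under several alternatives, and no named value of Wnt4 changed sign under any of the 25 settings. Each count is followed by its share of the Wnt genes tested and, after a slash, the share of all features called under the same setting. At day 3 the count of 5 (5.88/6.09%) became 0 with no slide term (0/1.18%) or within 1 slide (0/0%), 18 with normexp (21.2/15.8%), 3 with no filter (2.73/1.09%), 10 with probes above background on all arrays (17.2/17.7%) and 8 with the deposited table (9.41/7.78%). At day 7 the count of 17 (20.0/23.8%) became 8 with no slide term (9.41/14.8%), 10 within 1 slide (11.8/9.45%) and 27 with normexp (31.8/32.2%). At day 14 the count of 0 (0/0.402%) became 11 with no slide term (12.9/14.0%), 1 with quantile normalization (1.18/0.98%), 2 with probes above background on all arrays (3.45/2.81%) and 4 with the deposited table (4.71/3.04%). For day 7 against day 3, the count of 1 (1.18/0.677%) became 0 (0 against 0 to 0.555%) without the slide 1 arrays of day 0, within 1 slide, with no slide term, with no filter, with the mean of probes and with the replicate block, 7 with normexp (8.24/3.3%), 3 with probes above background on all arrays (5.17/3.0%) and 2 with the deposited table (2.35/0.835%). For day 14 against day 7, the count of 0 (0/2.3%) became 12 without the slide 1 arrays of day 0 (14.1/18.9%), 7 with no slide term (8.24/11.7%), 16 with normexp (18.8/18.8%), 1 with quantile normalization (1.18/2.55%) or with the percentile over probes above background on all arrays (1.18/3.36%), 5 with the filter on all arrays (8.62/11.2%), 3 with the deposited table (3.53/3.65%) and 4 with the replicate block (4.71/5.17%). Within 1 slide gave no value for it. The cause was not tested. Leaving out 1 RNA sample gave counts of 0 to 7 at day 3, 0 to 22 at day 7, 0 to 1 at day 14, 0 to 3 for day 7 against day 3 and 0 to 5 for day 14 against day 7; where day 0 RNA sample 1 or 2 was left out, the block correlation was taken from the full fit.

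Wnt4 gave 0.25 at day 3 and 1.02 at day 7 without the slide 1 arrays of day 0, and 0.43 and 0.96 with the mean of probes. It gave 1.1 at day 7 and -0.12 at day 14 with normexp, and 1.19 at day 7 with the deposited table. For day 14 against day 7 it gave -1.58 both without the slide 1 arrays of day 0 and with no slide term, -1.22 with normexp, -1.26 with the mean of probes and -1.59 with the deposited table. Leaving out 1 RNA sample gave 0.56 to 0.90 at day 3, 1.39 to 1.63 at day 7, -0.71 to -0.38 at day 14, 0.62 to 0.97 for day 7 against day 3 and -2.20 to -1.96 for day 14 against day 7. Of 858 values of the other 7 members under these settings, 814 moved by less than 1 SD and 45 had another sign, mostly of Axin2, Sfrp1 and Frzb. Same-numbered RNA samples of different days had deviations correlated at -0.152 to 0.169 (median 0.053, 6 of 19 pairs over 0.1). Differently numbered ones gave -0.203 to 0.187 (median -0.013, 7 of 54 over 0.1). These values do not settle whether the numbers pair the samples. With the replicate block, the counts were 5 at day 3 and 15 at day 7, and Wnt4 gave 0.62, 1.39 and -0.56 from day 3 to day 14. Low signal on slide 2 limits Axin2, Sfrp1 and the dimmer Wnt4 probe.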
